A study of Mus musculus with 4 samples.

Results

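Hox genes and limb and trunk position genes were described in mesenchymal stem/progenitor cells (MSPCs) cultured from the bone marrow of mice with and without Asxl1, measured by RNA sequencing. MSPCs are the fibroblast-like stromal cells that grow out of marrow in culture. The 40 genes were taken by symbol from the 23997 symbols of the deposited table, and all were found, with 1 row each. They comprise 10 genes of the Hoxa cluster, 9 of Hoxc, 9 of Hoxd and 12 transcription factor genes of limb or trunk position. There were 2 wild-type (WT) libraries and 2 Asxl1-/- libraries. The strain background was C57BL/6 in all 4, the passage 5 to 10 and the medium MesenCult, and the labels name no other allele or agent. The labels give neither the kind of Asxl1 allele nor the bone the marrow came from, nor whether replicates are different mice. The p-values therefore reflect the spread between these 4 libraries, which may be technical.

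Hox genes encode homeodomain transcription factors that give cells their position along the body axis and along the limb. They lie in 4 clusters, and their order in a cluster follows the order in which they act, with low paralog numbers toward the head or shoulder and high numbers toward the tail or digits. Fibroblasts and stromal cells of adult tissues keep much of the Hox pattern of the place they come from, also in culture. Polycomb complexes hold Hox genes silent outside their domains, and trithorax proteins keep them active inside. ASXL1 is the partner of the deubiquitinase BAP1, which removes the Polycomb mark from histone H2A.

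Asxl1 stood at 14.6 and 11.2 FPKM (a fragment count divided by transcript length and library size) in WT replicates 1 and 2 and at 0.273 and 0.312 in Asxl1-/- replicates 1 and 2, so the levels followed the labels. The number of reads is unknown, and the relative depths, read from the steps between low values, were 0.956 to 1.03 times that of WT replicate 1. The search covered only nearly equal depths, so a large difference could not have shown. Pearson's r across genes, which are not independent replicates, came to 0.866 for the WT pair, 0.874 for the Asxl1-/- pair and 0.840 to 0.878 for pairs of different genotype. Of 13 mesenchymal markers, 11 or 12 reached 1 FPKM in each library, while Lepr, a marker of marrow stroma in vivo, was at or near 0 in all. Of 15 macrophage markers found, 14 reached 1 FPKM in replicate 2 of each genotype and 3 in replicate 1, and their summed level was 7.66 and 576 FPKM in WT replicates 1 and 2 and 81.9 and 377 in Asxl1-/- replicates 1 and 2. Fcer1g alone made up 72.2 FPKM of the sum in Asxl1-/- replicate 1, and the other 14 macrophage markers summed to 7.66 and 562 in WT and 9.69 and 369 in Asxl1-/-. Endothelial, erythroid, B cell and T cell marker lists each summed to at most 1.19 FPKM, except the endothelial list in Asxl1-/- replicate 2, at 8.15 FPKM with Cdh5 at 7.11. Summed osteoblast markers stood at 14.7 and 34.1 FPKM in WT and 5.75 and 7.86 in Asxl1-/-, adipocyte markers at 156 and 45.5 against 165 and 18.8, and chondrocyte markers at 23.2 and 9.57 against 11.2 and 11.1. In bulk RNA, fewer cells of a type and less RNA per cell cannot be told apart.

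Hox levels differed more between the Asxl1-/- libraries than between the genotypes. Summed over the 10 Hoxa genes, the level was 29.2 and 53.9 FPKM in WT replicates 1 and 2 and 67.5 and 24.5 in Asxl1-/- replicates 1 and 2. Summed over the 9 Hoxc genes it was 50.1 and 72.5 in WT and 83.2 and 17.3 in Asxl1-/-. The 9 Hoxd genes summed to 8.37 and 11.95 in WT, and to 0.319 and 15.3 in Asxl1-/-. For all 3 sums the Asxl1-/- libraries lay on either side of the WT pair. The means were 41.5 ± 17.4 against 46.0 ± 30.4 FPKM for Hoxa, 61.3 ± 15.8 against 50.2 ± 46.6 for Hoxc, and 10.2 ± 2.53 against 7.79 ± 10.6 for Hoxd (WT against Asxl1-/-, SD, n = 2 each). These differences were smaller than the spread within Asxl1-/-, and an exact permutation test of 2 against 2 libraries cannot go below a two-sided p of 0.333.

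**Figure D1:**
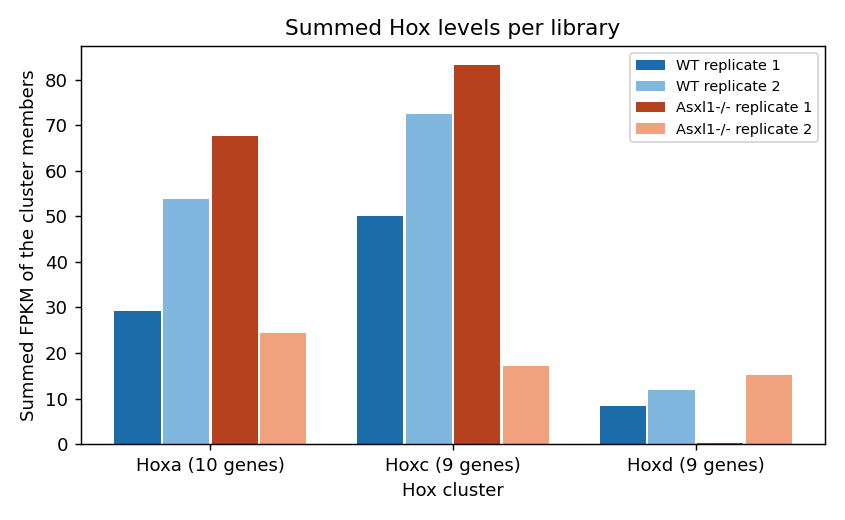
Bars show the summed FPKM of the cluster members in each of the 4 libraries, for Hoxa, Hoxc and Hoxd. Asxl1-/- replicate 1 had the highest Hoxa and Hoxc sums (67.5 and 83.2) and the lowest Hoxd sum (0.319), and Asxl1-/- replicate 2 had the reverse order (24.5, 17.3 and 15.3).

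The libraries also differed in which end of the clusters was used. Genes of paralog groups 9 to 13, the posterior and distal end, held 76.9%, 73.0% and 69.8% of the summed Hoxa, Hoxc and Hoxd level in WT replicates 1 and 2 and Asxl1-/- replicate 1, but 40.6% in Asxl1-/- replicate 2. There the central groups 6 to 8 held 41.4%, against 13.3% to 19.6% in the other libraries. Much of this lay in Hoxc10, which made up 35.2%, 31.7% and 26.0% of the level in the first 3 libraries and 5.74% in Asxl1-/- replicate 2. Hoxa10 did not share the drop, with 17.9%, 17.1%, 17.2% and 19.8% in the same order of libraries.

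**Figure D2:**
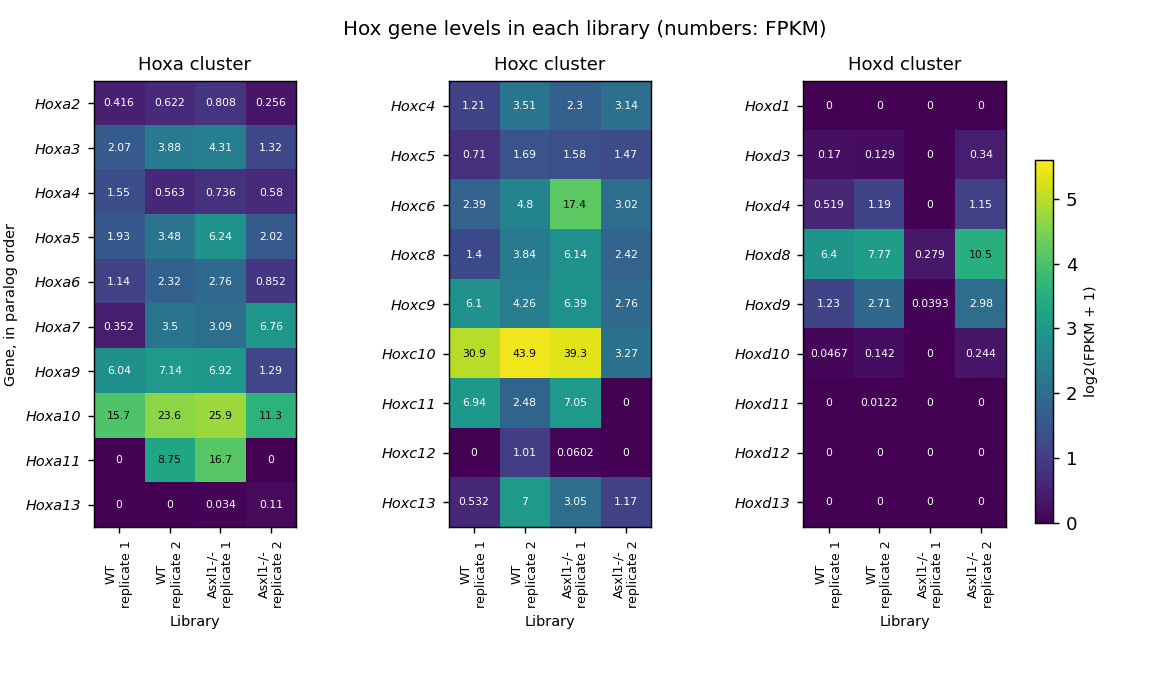
Each cell is 1 gene in 1 library, coloured by log2(FPKM + 1) and labelled with the FPKM, with genes in paralog order within each cluster. Hoxa11 was present only in WT replicate 2 and Asxl1-/- replicate 1 (8.75 and 16.7), the Hoxd genes were at most 0.279 in Asxl1-/- replicate 1, and Hoxc10 was lowest in Asxl1-/- replicate 2 (3.27).

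To compare genotypes, log2(FPKM + 1) was fitted with limma for the 11481 genes whose mean over the 4 libraries reached 1 FPKM. Of the 40 genes, 25 passed this filter (7 Hoxa, 8 Hoxc, 2 Hoxd and 8 position factors). None passed a Benjamini-Hochberg adjusted limma p of 0.05 in either direction, with adjusted p from 0.398 to 0.998, where 3 genes of the whole table did (0.0261%), 0 higher (0%) and 3 lower in Asxl1-/-. At an unadjusted limma p under 0.05, 0 of the 25 were higher and 2 lower in Asxl1-/-, Shox2 and Irx5, where the share was 2.51% and 5.41% among all tested genes, or 7.92% in either direction. The genotypes did not overlap for 3 of the 25 (Shox2, Tbx15 and Irx5), all with lower values in Asxl1-/-, and for 0 with higher values. The background shares were 25.2% lower and 15.6% higher. The share of members lower without overlap, 3 of 25, was thus not above the background. After median ratio scaling of the libraries the split of all genes moved, from 288 higher and 621 lower at an unadjusted p under 0.05 to 404 and 530, and from 1795 higher and 2889 lower without overlap to 2313 and 2389.

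The median log2 fold change (Asxl1-/- minus WT, on log2(FPKM + 1), which understates low genes) was -0.01 for Hoxa, 0.01 for Hoxc, -0.78 for Hoxd and -0.77 for the position factors, against -0.07 for all genes tested. The Hoxd median rests on 2 genes, and it was -1.70 with a pseudocount of 0.1 and -0.16 with no filter on low values. Of the 25, 9 were positive and 16 negative. The larger gap between replicates of a genotype exceeded the difference between the genotypes for 23 of the 25 members, a share of 92%, where it did so for 72.2% of the whole table. The exceptions were Shox2 and Irx5. The median of that larger replicate gap was 1.74 on the log2 scale for the members and 0.53 for all genes.

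**Figure D3:**
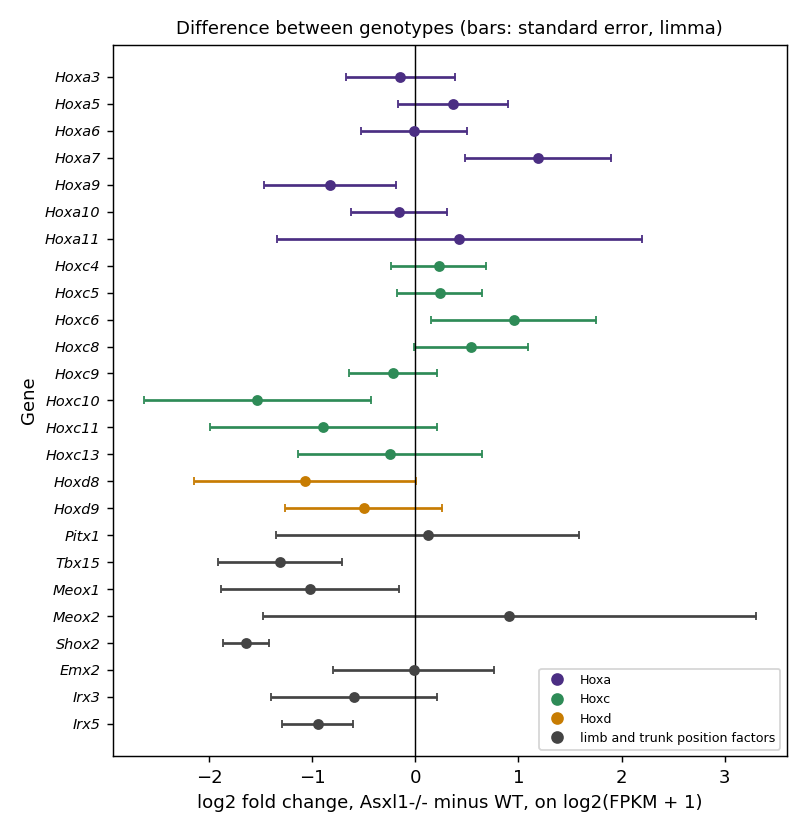
Points show the log2 fold change of Asxl1-/- minus WT on log2(FPKM + 1) for the 25 members tested, with bars for the limma standard error, coloured by cluster. Shox2 stands at -1.64 with a standard error of 0.22, while Meox2 (0.91) and Hoxa11 (0.43) have standard errors of 2.39 and 1.77.

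In the Hoxa cluster (mm10 chromosome 6, 52162417 to 52260880), the anterior genes were low in all libraries. Hoxa3, which acts in neck and throat patterning, stood at 2.07 and 3.88 FPKM in WT and 4.31 and 1.32 in Asxl1-/-. Hoxa5, which patterns the neck and upper thorax and the lung, stood at 1.93 and 3.48 against 6.24 and 2.02, and Hoxa6 at 1.14 and 2.32 against 2.76 and 0.852. These 3 genes were higher in WT replicate 2 and Asxl1-/- replicate 1 than in the other pair, so each genotype held a higher and a lower library. The Hoxa3 row spans those of Hoxa4, Hoxa5 and Hoxa6, and without known strand the reads of the shared stretch cannot be told apart. Hoxa2, a hindbrain and jaw gene, stayed between 0.256 and 0.808 FPKM, and Hoxa4 reached 1 FPKM only in WT replicate 1, at 1.55. Both had a mean under 1 FPKM and were not tested.

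Hoxa7, a gene of the trunk, had another order. It stood at 0.352 and 3.50 FPKM in WT and 3.09 and 6.76 in Asxl1-/-, with a log2 fold change of 1.19 (standard error 0.71, limma adjusted p = 0.701). WT replicate 2 lay above Asxl1-/- replicate 1, so the groups overlapped, although after quantile normalization or removal of chromosome medians they did not. The neighbouring noncoding RNA gene Mira, transcribed next to Hoxa7, was likewise lowest in WT replicate 1 and highest in Asxl1-/- replicate 2, with 0.873 and 4.23 against 4.76 and 11.2 FPKM.

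Toward the posterior end, Hoxa9, a gene of trunk and limb that also acts in blood stem cells, stood at 6.04 and 7.14 FPKM in WT and 6.92 and 1.29 in Asxl1-/-. Hoxa10, which patterns the thigh and upper arm level and the lumbar spine, was the highest Hoxa gene in every library, at 15.7 and 23.6 against 25.9 and 11.3. For both, Asxl1-/- replicate 2 was the lowest library, and Asxl1-/- replicate 1 lay within or above the WT pair. The log2 fold change was -0.83 for Hoxa9 (standard error 0.64) and -0.16 for Hoxa10 (standard error 0.47), with limma adjusted p of 0.768 and 0.943. Hoxa13, the digit and genital gene at the end of the cluster, was at most 0.110 FPKM.

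Hoxa11, which specifies the forearm and lower leg, was all or none. The level was 8.75 FPKM in WT replicate 2 and 16.7 in Asxl1-/- replicate 1, and the gene was listed at 0 in the other library of each genotype. Its antisense partner Hoxa11os, given because its row (52245243 to 52249769) overlaps the 5′ end of Hoxa11 (52242105 to 52245810 on chromosome 6), stood at 0.0235 and 10.2 FPKM in WT and 19.3 in Asxl1-/- replicate 1, with 0 listed for replicate 2, which is the same order of libraries. Without strand, reads in the overlap cannot be assigned to either. Of 8 housekeeping genes checked, 0 were listed at 0 in any library.

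Among the limb factors, 2 others had this kind of pattern. Pitx1, the regulator that makes a limb bud a hindlimb, reached 6.71 FPKM in WT replicate 2 and 8.12 in Asxl1-/- replicate 1 and, as Hoxa11, had 0 listed in the other pair. Meox2, a homeobox gene of somites and limb muscle, had the complement. Its level was 16.1 FPKM in WT replicate 1 and 59.7 in Asxl1-/- replicate 2, with 0 listed in the remaining pair. The log2 fold changes of 0.43 (Hoxa11), 0.12 (Pitx1) and 0.91 (Meox2) therefore set 1 library of each kind in each group, and the limma adjusted p were 0.964, 0.989 and 0.935. Each changed sign when single libraries were left out, from -1.64 to 2.50 for Hoxa11, -1.47 to 1.72 for Pitx1 and -2.05 to 3.88 for Meox2. Of all 23997 symbols, 9 had at least 1 FPKM in WT replicate 2 and Asxl1-/- replicate 1 and under 0.1 in the other pair, among them Hoxa11, Hoxa11os and Pitx1, and 10 had the complement, among them Meox2. These limits were chosen after the values were seen. The hindlimb gene Tbx4 reached 0.441 FPKM in WT replicate 1, with 0 listed elsewhere, and the forelimb gene Tbx5 was listed at 0 in all 4 libraries.

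The promoters of Hoxa11 and Meox2 are shown because their genes had opposite patterns over the same 4 libraries. They are RefSeq windows on GRCm38.p6, from 250 bases before to 50 after the start, 5′ to 3′ on the gene's strand, chr6:52245761-52246060 (minus) and chr12:37108290-37108589 (plus), with CG dinucleotides in capitals.
Hoxa11: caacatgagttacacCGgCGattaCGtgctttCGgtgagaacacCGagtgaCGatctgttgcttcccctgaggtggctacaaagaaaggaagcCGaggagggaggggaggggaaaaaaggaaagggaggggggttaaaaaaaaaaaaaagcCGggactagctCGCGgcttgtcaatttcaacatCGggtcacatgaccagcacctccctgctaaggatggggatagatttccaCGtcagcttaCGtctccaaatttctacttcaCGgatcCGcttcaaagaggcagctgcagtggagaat
Meox2: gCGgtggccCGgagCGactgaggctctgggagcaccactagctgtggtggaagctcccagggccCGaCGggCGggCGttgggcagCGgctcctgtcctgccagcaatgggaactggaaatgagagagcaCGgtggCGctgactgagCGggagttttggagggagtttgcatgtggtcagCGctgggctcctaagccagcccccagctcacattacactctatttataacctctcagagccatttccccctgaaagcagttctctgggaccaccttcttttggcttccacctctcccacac
CG dinucleotides are the sites of DNA methylation, and promoters dense in them are the usual targets of Polycomb. The Hoxa11 window held 15 and the Meox2 window 12, numbers reached or passed by 34.6% and 39.6% of all 32851 windows of that length. TATAAA, the core of the TATA box, was found on either strand in the Meox2 window and not in the Hoxa11 window, against 13.6% of all windows. CCAAT, searched on either strand, was in neither window, against 37.4% of all.

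In the Hoxc cluster (mm10 chromosome 15, 102921131 to 103036852) all genes from Hoxc4 to Hoxc10 were above 0 in all libraries. Hoxc4 and Hoxc5, anterior trunk genes, had their lowest level in WT replicate 1. Hoxc4 stood at 1.21 and 3.51 FPKM in WT and 2.30 and 3.14 in Asxl1-/-, and Hoxc5 at 0.710 and 1.69 against 1.58 and 1.47. Hoxc6, a gene of the thorax and forelimb level, stood at 2.39 and 4.80 FPKM in WT, 17.4 in Asxl1-/- replicate 1 and 3.02 in replicate 2. Its log2 fold change of 0.96 (standard error 0.80, limma adjusted p = 0.784) rested on Asxl1-/- replicate 1, without which it was -0.14. Hoxc8, a thoracic gene, was also highest there, with 1.40 and 3.84 against 6.14 and 2.42.

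Hoxc9, Hoxc10 and Hoxc11 were each lowest in Asxl1-/- replicate 2. Hoxc10, a gene of the lumbar region and hindlimb, had the highest level of all Hox genes listed here in the first 3 libraries, with 30.9 and 43.9 FPKM in WT and 39.3 in Asxl1-/- replicate 1, and stood at 3.27 in Asxl1-/- replicate 2. Hoxc11, its neighbour in the same domain, stood at 6.94 and 2.48 in WT and 7.05 in Asxl1-/- replicate 1, with 0 listed for Asxl1-/- replicate 2. Hoxc9, on the thoracic side, had a narrower range, 6.10 and 4.26 against 6.39 and 2.76. The log2 fold change of Hoxc10 was -1.53 (standard error 1.10, limma adjusted p = 0.751), and it was 0.089 without Asxl1-/- replicate 2. That of Hoxc11 was -0.89 (standard error 1.10, limma adjusted p = 0.860), and 0.62 without that library. At the end of the cluster, Hoxc13, known for hair and nails, stood at 0.532 and 7.0 against 3.05 and 1.17, and Hoxc12 reached 1 FPKM only in WT replicate 2, at 1.01.

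In the Hoxd cluster (mm10 chromosome 2, 74668310 to 74765142) the 2 genes above the filter were Hoxd8 and Hoxd9, trunk and proximal limb genes. Hoxd8 stood at 6.4 and 7.77 FPKM in WT, 0.279 in Asxl1-/- replicate 1 and 10.5 in Asxl1-/- replicate 2. Hoxd9 stood at 1.23 and 2.71 in WT, 0.0393 in Asxl1-/- replicate 1 and 2.98 in Asxl1-/- replicate 2. Both Asxl1-/- libraries thus lay outside the WT range, on opposite sides. Hoxd4, Hoxd3 and Hoxd10 were above 0 in every library but Asxl1-/- replicate 1, where each was listed at 0, with Hoxd4 at 0.519 and 1.19 in WT and 1.15 in Asxl1-/- replicate 2. The digit genes Hoxd11, Hoxd12 and Hoxd13 and the most anterior Hoxd1 were at most 0.0122 FPKM anywhere. The log2 fold change was -1.07 for Hoxd8 (standard error 1.08) and -0.50 for Hoxd9 (standard error 0.76), with limma adjusted p of 0.817 and 0.880, and both were positive without Asxl1-/- replicate 1, at 0.52 and 0.47.

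Genes beside the Hoxd cluster did not share its pattern. The nearest 3 genes per side whose mean reached 1 FPKM, a rule chosen after the Hox values were seen, all reached 1 FPKM in each library, and their highest library was 1.29 to 1.82 times the lowest. Among them Mtx2, directly beyond the cluster, stood at 53.7 and 32 FPKM in WT and 39.5 and 30.1 in Asxl1-/-. For Hoxc all 6 such neighbours also reached 1 FPKM everywhere, with ratios of 1.17 to 2.05, and for Hoxa 5 of 6 did, Jazf1 being the exception. Over the 931 genes tested on chromosome 2, the median log2 value in Asxl1-/- replicate 1 stood 0.058 above the mean of the remaining libraries.

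The promoters of Hoxd8 and Hoxd9 are shown because these neighbours had the same order of libraries. They are RefSeq windows as above, on the plus strand, chr2:74704365-74704664 and chr2:74697513-74697812, with CG in capitals.
Hoxd8: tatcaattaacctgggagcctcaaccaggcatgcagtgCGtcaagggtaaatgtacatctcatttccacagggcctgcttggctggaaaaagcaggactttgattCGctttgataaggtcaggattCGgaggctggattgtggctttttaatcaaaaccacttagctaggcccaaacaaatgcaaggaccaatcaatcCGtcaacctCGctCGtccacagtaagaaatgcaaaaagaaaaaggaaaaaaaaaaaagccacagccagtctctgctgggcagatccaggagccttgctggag
Hoxd9: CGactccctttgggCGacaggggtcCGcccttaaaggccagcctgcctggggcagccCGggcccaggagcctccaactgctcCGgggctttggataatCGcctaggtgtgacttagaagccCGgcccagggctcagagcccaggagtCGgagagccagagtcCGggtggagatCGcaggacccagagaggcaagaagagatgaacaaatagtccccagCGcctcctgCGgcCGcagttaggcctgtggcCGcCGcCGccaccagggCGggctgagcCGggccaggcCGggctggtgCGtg
The windows differed in base composition. That of Hoxd8 held 6 CG dinucleotides, which 56.4% of all windows reached, and that of Hoxd9 held 20, which 26.5% reached. CCAAT was found in the Hoxd8 window and not in the Hoxd9 window, and TATAAA in neither. Of the 40 genes, 25 had RefSeq windows, 27 in all. Their median was 15 CG dinucleotides against 7 over all windows, and 13 of the 27 held 20 or more, against 26.5% of all windows.

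The Hoxb genes, the remaining cluster, are given for comparison only. Their summed level over 10 genes was 0 and 2.42 FPKM in WT and 15.7 and 34.2 in Asxl1-/-, without overlap, whereas the groups overlapped for the Hoxa, Hoxc and Hoxd sums. The 6 Hoxb genes tested were at most 0.993 FPKM in WT, so each passed the filter only through its Asxl1-/- libraries. Of these, 6 were higher in Asxl1-/- without overlap and 2 at an unadjusted limma p under 0.05. The shares of all genes, 15.6% and 2.51%, are no fair background for genes that passed in this way. The difference between the clusters was not tested. Of 5 tested genes from a list of cluster neighbours and cluster RNAs, Mira and Mtx2 included, 0 reached that p in either direction.

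Of the position factors outside the Hox clusters, Shox2 was the member that separated the genotypes most closely. Shox2, a homeobox gene needed for the upper segment of the limb, stood at 19.6 and 17.6 FPKM in WT and 5.38 and 5.16 in Asxl1-/- (18.6 ± 1.39 against 5.27 ± 0.155, SD, n = 2 each). The replicates lay closer to each other than the groups did. With a log2 fold change of -1.64 (standard error 0.22), Shox2 had a limma adjusted p = 0.398 and was not called. The authors' deposited table lists Shox2 at -1.70 on the log2 scale, its q being 0.252, and does not mark it. Only a rescaling could have created overlap for Shox2, and none arose after median ratio scaling, quantile normalization or removal of chromosome medians. Of 14 alternative settings 10 kept all 4 libraries. In each of these the unadjusted limma p of Shox2 was under 0.05, with adjusted p from 0.348 to 0.523. With 1 library left out its log2 fold change ran from -1.71 to -1.57.

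Tbx15, a T-box gene of limb and trunk skeleton and skin, had the highest mean of all 40 genes, with 57.4 and 38.6 FPKM in WT and 32.7 and 10.1 in Asxl1-/-. Its log2 fold change was -1.31 (standard error 0.60, limma adjusted p = 0.632), and -0.51 without Asxl1-/- replicate 2. Shox2 and Tbx15 both lie on chromosome 3. Over the 559 tested genes of that chromosome, the median log2 difference from the remaining libraries was 0.56 and 0.10 for the WT replicates and -0.58 and -0.072 for the Asxl1-/- replicates. With each library's chromosome medians removed, the log2 fold change was -1.15 for Shox2, and -0.82 for Tbx15, whose groups then overlapped.

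The promoter of Shox2 is shown because the gene was the clearest separator of the genotypes. It is the RefSeq window chr3:66981722-66982021 (GRCm38.p6, minus strand), with CG in capitals.
Shox2: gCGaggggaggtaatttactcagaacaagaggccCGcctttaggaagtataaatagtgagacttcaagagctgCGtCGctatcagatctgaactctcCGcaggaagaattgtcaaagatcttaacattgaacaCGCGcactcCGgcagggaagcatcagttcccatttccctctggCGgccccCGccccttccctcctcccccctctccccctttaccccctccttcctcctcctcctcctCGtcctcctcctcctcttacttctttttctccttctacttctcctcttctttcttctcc
It held 11 CG dinucleotides, a number that 41.4% of all windows reach, and a TATAAA, and no CCAAT.

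Irx5 and Irx3 are Iroquois homeobox genes that pattern limb and nervous system and lie near each other on chromosome 8. Irx5 stood at 5.08 and 4.66 FPKM in WT and 1.42 and 2.84 in Asxl1-/-, without overlap. Its log2 fold change was -0.95 (standard error 0.35, limma adjusted p = 0.618), and -0.61 without Asxl1-/- replicate 1. The 623 tested genes of chromosome 8 had medians of 0.23 and 0.089 in WT and -0.26 and -0.071 in Asxl1-/- on the same scale as for chromosome 3, and with chromosome medians removed Irx5 stood at -0.70. Irx3 did not share this order, with 0.482 and 5.89 in WT and 0.987 and 1.25 in Asxl1-/-, so that WT replicate 1 was the lowest library. The osteoblast marker sum was also lower in Asxl1-/-, as Shox2, Tbx15 and Irx5 were. Of 6 markers listed, 3 could be tested, and all 3 were lower without overlap. Runx2, the master regulator of bone formation, stood at 13.6 and 17.6 FPKM in WT and 5.73 and 7.32 in Asxl1-/-. Alpl and Dmp1 were at most 0.806 FPKM outside WT replicate 2, so each passed the filter only through that library. The share of all genes lower without overlap, 25.2%, is no fair background for genes that passed in this way. Sp7, not tested, overlapped, at 0.0552 and 3.23 FPKM in WT and 0 and 0.212 in Asxl1-/-. In WT replicate 2, 5 of the 6 reached 1 FPKM, and in each other library 1 did. Their part in the levels of Shox2, Tbx15 and Irx5 was not tested.

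Emx2, a homeobox gene needed for the shoulder blade and the urogenital tract, differed within each genotype and hardly between them. It stood at 15.6 and 4.57 FPKM in WT and 15.8 and 4.39 in Asxl1-/- (log2 fold change -0.01, standard error 0.78, limma adjusted p = 0.998). The low libraries were those with the higher macrophage marker sums, 576 and 377 FPKM against 7.66 and 81.9. They also had the lower adipocyte marker sums, 45.5 and 18.8 against 156 and 165, a list carried by Fabp4 at 145.6 and 31.0 in WT and 149.6 and 5.16 in Asxl1-/-. Of the other 4 adipocyte markers, Pparg ranged from 8.51 to 10.6, Cebpa was lowest in WT replicate 1 at 0.785, and Adipoq and Plin1 were under 1 FPKM in all libraries. The part of either list in the level of Emx2 was not tested. Meox1, a somite gene, reached 3.84 FPKM in WT replicate 1 and at most 0.160 in the other libraries (log2 fold change -1.02, standard error 0.86, limma adjusted p = 0.786).

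**Figure D4:**
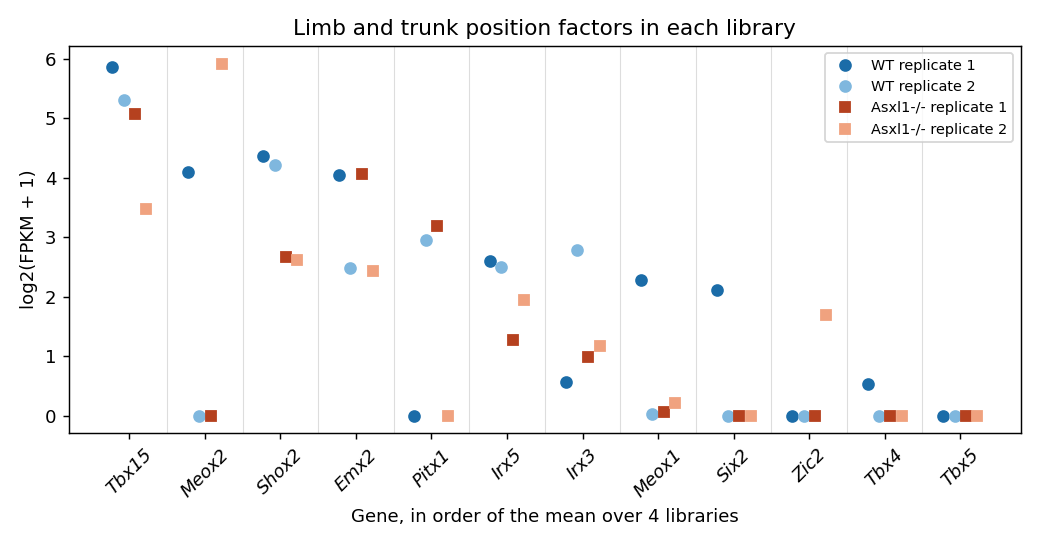
Points show log2(FPKM + 1) of the 12 position factors in each library (circles for WT, squares for Asxl1-/-), ordered by mean level. The genotypes separate for Shox2, Tbx15 and Irx5, Pitx1 and Meox2 are split within each genotype, and Six2 and Zic2 are above 0 in 1 library each.

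The authors' deposited table marks 121 of 12881 genes tested there as significant (0.939%), and 2 of the 31 members it tested, Six2 and Zic2. Both were carried by 1 library. Six2, a homeobox gene of kidney progenitors and head and limb mesenchyme, had 3.30 FPKM in WT replicate 1, while WT replicate 2 and both Asxl1-/- libraries were listed at 0. Zic2, a zinc finger gene of the neural tube and dorsal somite, had 2.24 FPKM in Asxl1-/- replicate 2, while the other 3 libraries were listed at 0. For each gene the other library of its group was thus at the same listed 0 as the opposite genotype. In the authors' deposited table the group values were 1.86 and 0 FPKM for Six2 and 0 and 1.41 for Zic2, WT and Asxl1-/-, with a q of 0.00836 for each. Means of 0.825 and 0.559 FPKM kept both out of the limma fit. At an unadjusted p under 0.05 the authors' deposited table holds 6 of the 31 members, against 7.34% of all its tested genes. The 4 of them that it does not mark were Tbx15, Meox1, Meox2 and Shox2, with q values in the authors' deposited table from 0.0942 for Meox2 to 0.581 for Tbx15.

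The promoter of Six2 is shown as that of a gene called by the authors and seen in a single library. It is the RefSeq window chr17:85688205-85688504 (GRCm38.p6, minus strand), with CG in capitals.
Six2: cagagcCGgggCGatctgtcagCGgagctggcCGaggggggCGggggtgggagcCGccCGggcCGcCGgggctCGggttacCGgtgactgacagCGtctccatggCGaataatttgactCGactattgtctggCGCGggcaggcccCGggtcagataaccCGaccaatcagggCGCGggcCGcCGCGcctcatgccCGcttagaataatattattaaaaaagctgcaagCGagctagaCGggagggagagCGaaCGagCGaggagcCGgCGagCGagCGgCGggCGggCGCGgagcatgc
With 37 CG dinucleotides it lay below only Hoxa13 among the member windows, level with Hoxd13, a number reached by 5.58% of all windows, and it held a CCAAT and no TATAAA.

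Genes that work with or regulate Hox factors were read from lists chosen with earlier results known. Of their tested genes 0 passed the adjusted limma threshold, and counts at an unadjusted limma p under 0.05 are given against 2.51% higher and 5.41% lower of all genes. Of the TALE cofactors, which bind DNA together with Hox proteins, 2 of 8 were higher and 1 lower. Pknox2 stood at 3.13 and 2.56 FPKM in WT and 7.36 and 6.83 in Asxl1-/-. Meis1, which marks the proximal limb, stood at 8.86 and 6.34 against 2.97 and 3.23, and Pknox1 at 8.36 and 6.12 against 3.99 and 4.35. Of the 8, 3 were higher and 3 lower without overlap, the 3 named ones among them, against 15.6% and 25.2% of all genes. Their log2 fold changes ran from -1.05 for Meis1 to 1.08 for Pknox2.

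Of 11 trithorax and related genes tested, which keep Hox genes active, 0 were higher and 0 lower. Psip1, a chromatin reader that brings in the Kmt2a complex, stood at 57.5 and 28.9 FPKM in WT and 22.4 and 16.7 in Asxl1-/-, and Men1, a Kmt2a subunit, at 24.8 and 15.1 against 13.2 and 10.9. Ash1l, a histone methyltransferase of this class, stood at 14.9 and 11.8 against 7.13 and 10.8. Over the 11 genes, 6 were lower and 1 higher in Asxl1-/- without overlap, these 3 among the lower, where the background was 25.2% lower and 15.6% higher. Of 19 Polycomb and BAP1 complex genes, 1 was higher and 2 lower, the latter including Asxl1. Ezh2, which sets the Polycomb mark on histone H3, stood at 24.0 and 13.1 FPKM in WT and 7.06 and 6.30 in Asxl1-/- (log2 fold change -1.29, standard error 0.35, limma adjusted p = 0.552). Pcgf5 was the higher one, with 6.42 and 5.35 against 11.6 and 12.7, while Cbx7, a reader of the Polycomb mark, stood at 2.08 and 2.58 against 0.882 and 1.51.

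Retinoic acid is a signal that switches on anterior Hox genes, and of 13 tested genes of its pathway 2 were higher and 1 lower. Rarb, a retinoic acid receptor that is itself a retinoic acid target, stood at 3.52 and 0.546 FPKM in WT and 9.70 and 7.88 in Asxl1-/-, and Rdh10, which makes retinal, at 7.36 and 4.29 against 11.6 and 28.6. Crabp1, which binds retinoic acid in the cytoplasm, stood at 60.1 and 41.0 against 17.1 and 10.6. Dhrs3, which turns retinal back to retinol, stood at 4.59 and 8.65 in WT, 109 in Asxl1-/- replicate 1 and 12.2 in replicate 2. That library also held the lowest Hoxd and the highest Hoxa and Hoxc sums, and whether the levels are related was not tested.

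Of 18 tested genes of limb patterning outside the 40, 2 were higher and 3 lower. Prrx2, a homeobox gene of limb and head mesenchyme, stood at 144 and 65.3 FPKM in WT and 11.6 and 20.8 in Asxl1-/- (log2 fold change -2.56, standard error 0.50, limma adjusted p = 0.502). Twist1, a regulator of limb and skull mesenchyme, stood at 30.1 and 17.2 against 11.9 and 9.67. Higher in Asxl1-/- were Hic1, a gene of mesenchymal progenitors, with 7.21 and 7.37 against 19.1 and 14.5, and En1, which marks ventral limb ectoderm and dermis, with 1.14 and 2.66 against 4.29 and 7.21.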

How the data were processed

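RNA of 2 WT and 2 Asxl1-/- MSPC cultures was sequenced. The submitters' processing notes name Cufflinks 2.2.1, TopHat2 2.0.3, Cuffdiff and the build mm10. For annotation and strandedness nothing is stated there. The authors' deposited table of FPKM holds 24487 rows and 23997 symbols; 2 further columns of per-sample values match no sample and were not used. File starts are printed with 1 added. The authors' deposited Cuffdiff table holds a log2 fold change, group FPKM and the p-value and q-value of its test.

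For each symbol the row with the highest mean was kept. Those averaging 1 FPKM or more entered limma (version 3.58.1, R version 4.3.3; eBayes with trend) on log2(FPKM + 1), pseudocount 1, with Benjamini-Hochberg adjustment at 0.05. The script was checked on simulated data. The members and lists were chosen with earlier results of these data known. Members past the filter are named with each library's value, others by range or where a library reaches 1 FPKM, and from other lists up to 4 tested genes with the smallest p, of which 1 is not reported here. Groups come from the genotype label. Replicates are numbered in accession order and pair nothing. A log table holding the same values was not used.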

Additional observations from a re-analysis of the deposited data

How the results depend on the processing

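No paired analysis was possible because the labels give the groups no shared replicate numbers. With 2 libraries a group the fit has 2 residual degrees of freedom, and 1 with a library left out, where the lone library is assumed to vary like the other group. The 14 alternatives left 0 members past the adjusted limma threshold. Among all genes, 3 passed it, against 1 with no filter, 0 without genes spanning under 300 bp, and 1 to 8 with 1 library left out. Members at an unadjusted limma p under 0.05 numbered 2, where 288 of 11481 genes were higher and 621 lower. With no filter only Shox2 remained, where 397 of 17305 genes were higher and 901 lower. At a mean of at least 5 FPKM it was again Shox2 alone (231 and 422 of 8396 genes). The same held after median ratio scaling (404 and 530 of 11476) and after quantile normalization (385 and 513 of 11486). It also held with chromosome medians removed (433 and 587 of 11481). Members without overlap numbered 3, where 1795 of 11481 genes were higher and 2889 lower without overlap. After quantile normalization such members numbered 5, where 2376 of 11486 genes were higher and 2313 lower. With 1 library left out they numbered 10 to 16, as 3 libraries overlap less easily. There 3211 to 3562 of 11481 genes were higher and 4357 to 5204 lower without overlap.

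With 1 library left out, the median log2 fold change ran from -0.72 to 0.50 for Hoxa, from -0.42 to 0.65 for Hoxc, from -2.06 to 0.49 for Hoxd and from -1.07 to -0.89 for the position factors. The last was -0.46 after quantile normalization and -0.53 with chromosome medians removed. The Hoxd median, of 2 genes, was -1.70 with a pseudocount of 0.1, -1.07 with one of 0.5 and -0.16 with no filter. The Hoxc median of 0.01 was -0.21 with no filter and -0.29 at a mean of at least 5 FPKM. The log2 ratio of the summed levels (Asxl1-/- over WT), 0.15 for Hoxa, -0.29 for Hoxc and -0.38 for Hoxd, ran from -0.76 to 0.70, from -1.83 to 0.44 and from -5.00 to 0.59. The Hoxa and Hoxc lows came without Asxl1-/- replicate 1, and the Hoxd low without Asxl1-/- replicate 2.

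Of the 25 members, 20 changed sign in at least 1 fit with a library left out. Among Hoxa genes the log2 fold change then lay from -0.74 to 0.46 for Hoxa3, -0.26 to 1.0 for Hoxa5, -0.52 to 0.50 for Hoxa6, -1.72 to 0.066 for Hoxa9, -0.72 to 0.41 for Hoxa10 and -1.64 to 2.50 for Hoxa11. Among Hoxc genes it ran from -0.29 to 0.74 for Hoxc4, -0.089 to 0.56 for Hoxc5, -0.14 to 2.05 for Hoxc6, -0.70 to 0.27 for Hoxc9, -3.15 to 0.089 for Hoxc10, -2.39 to 0.62 for Hoxc11 and -1.43 to 0.95 for Hoxc13. For the others it ran from -2.65 to 0.52 for Hoxd8, -1.47 to 0.47 for Hoxd9, -1.47 to 1.72 for Pitx1, -2.14 to 0.11 for Meox1, -2.05 to 3.88 for Meox2, -0.83 to 0.81 for Emx2 and -1.70 to 0.51 for Irx3. The other 5, Hoxa7, Hoxc8, Tbx15, Shox2 and Irx5, kept their sign. Of 233 values under the other settings 8 changed sign, all of genes near 0. These were Emx2 (0.071 after median ratio scaling, 0.092 after quantile normalization), Hoxa3 (0.013 after quantile normalization, 0.070 with chromosome medians removed), Hoxa6 (0.037, 0.18 and 0.20 after median ratio scaling, quantile normalization and removal of chromosome medians) and Hoxa10 (0.055 with chromosome medians removed). The cause was not tested.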
